A study of Mus musculus with 3 samples.

Results

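Hedgehog signalling was followed through 9 genes in a culture that turns sorted testis mesenchymal cells into Leydig cells, the testosterone-producing cells of the testis, under SAG on every day. The genes were chosen by name. They are the target genes Gli1, Ptch1 and Hhip, the transcription factors Gli2 and Gli3, the transducer Smo and the co-receptors Boc, Cdon and Gas1. All 9 had unique molecular identifiers (UMIs) on each day, and they are 9 of 23473 genes with at least 1 UMI in the cells used.

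In this pathway a secreted hedgehog ligand binds its receptor Patched with the help of co-receptors, which frees Smoothened to act at the primary cilium and turns Gli factors from repressors into activators. Gli1, Ptch1 and Hhip are direct targets whose RNA is widely used as a readout of the pathway, and SAG is a small molecule that activates Smoothened without a ligand. In the testis, Desert hedgehog from Sertoli cells acts on interstitial cells and is needed for the Leydig lineage.

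The study profiled the culture by Drop-seq, a droplet method that counts UMIs per gene and cell, with 1 library each for days 4, 7 and 14. All 3 groups began as Sca1+/cKit− testis cells from adult C57BL/6 males of 8 to 12 weeks, seeded at 100000 cells per well. After 18 h of recovery they spent 3 days in expansion medium with 0.5 µM SAG and PdgfAA, PdgfBB and Fgf2 at 10 ng/ml each. Differentiation medium then held the same agents plus 5 mM LiCl2 and 10 µM DAPT, a Notch pathway inhibitor; by the paper's account day 4 stands at this change of medium and days 7 and 14 lie after it. No culture without SAG was analysed here, so values describe the time course under the agonist and not a response to it, and day of culture, library and, between day 4 and the later days, LiCl2 and DAPT cannot be told apart.

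Day 4 gave 2980 cells with 12677110 UMIs (median 2886.5 per cell), day 7 gave 2171 cells with 11627440 UMIs (median 3285), and day 14 gave 973 cells with 5324400 UMIs (median 3272). No cell barcode was shared between the libraries. Levels are UMIs per 1000000 UMIs (CPM) over all cells of a day with exact Poisson 95% intervals, ratios have exact 95% intervals from the same UMIs, and neither holds more than counting error. Since each day is a single library, no test was made and no difference has a replicate check. Counts at 3′ ends are not divided by gene length, so levels are compared within a gene and not between genes.

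Marker genes matched the label of the culture. The 8 Leydig markers were all detected and summed to 740, 861 and 12375 CPM on days 4, 7 and 14, with Akr1cl the most abundant on days 4 and 14 and Star on day 7. Cyp11a1, which starts steroid synthesis from cholesterol, was at 19.5, 56.8 and 2089 CPM. The 8 myofibroblast markers differed the other way, with sums of 7544, 6384 and 503 CPM; Acta2 was the most abundant of them on days 4 and 7 and Myl9 on day 14, where Cnn1 had no UMI.

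Among the targets, Gli1 and Ptch1 had their highest level on day 4, and Hhip on day 14. Gli1 (chr10:127329882-127341974, minus strand) encodes the Gli factor that is itself induced by the pathway. It had 165 UMIs or 13.0 CPM on day 4 (interval 11.1–15.2), 83 UMIs or 7.14 CPM on day 7 (5.69–8.85) and 38 UMIs or 7.14 CPM on day 14 (5.05–9.80). The interval of day 4 lay above those of days 7 and 14, which did not differ beyond counting error. The ratio of day 7 to day 4 was 0.548 (0.416–0.718), and that of day 14 to day 4 was also 0.548 (0.375–0.784).

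Ptch1 (chr13:63508328-63573598, minus strand), the main hedgehog receptor, holds Smoothened inactive when no ligand is bound. Its 463 UMIs on day 4 made 36.5 CPM (33.3–40.0), its 259 UMIs on day 7 made 22.3 CPM (19.6–25.2) and its 126 UMIs on day 14 made 23.7 CPM (19.7–28.2). The order was that of Gli1, with day 4 above the other days. The ratio was 0.610 (0.522–0.712) for day 7 over day 4 and 0.648 (0.528–0.791) for day 14 over day 4, while day 14 over day 7 was 1.06 (0.852–1.32).

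Hhip (chr8:79965851-80058006, minus strand) encodes a membrane protein that binds and sequesters ligand. It was counted at 41 UMIs on day 4, or 3.23 CPM (2.32–4.39), 42 UMIs on day 7, or 3.61 CPM (upper limit 4.88), and 51 UMIs on day 14, or 9.58 CPM (7.13–12.6). Unlike Gli1 and Ptch1, it was highest on day 14, where its interval lay above both others, at 2.96 times day 4 (1.92–4.58) and 2.65 times day 7 (1.73–4.09). On day 14 its UMIs came from 30 cells, and 1 cell held 8 of them. Without the richest cell of each day, its log2 ratio of day 14 over day 4 was 1.44 instead of 1.57.

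Of the Gli factors that act before the targets, Gli3 showed the largest difference between days among the members. Gli3 (chr13:15463235-15730026, plus strand), the main repressor in the absence of signal, had 197 UMIs or 15.5 CPM on day 4 (13.4–17.9), 125 UMIs or 10.8 CPM on day 7 (8.95–12.8) and only 9 UMIs or 1.69 CPM on day 14 (0.773–3.21). The 3 intervals did not overlap, and day 14 was 9.19-fold below day 4 (4.75–20.4) and 6.36-fold below day 7 (3.24–14.2).

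Gli2 (chr1:118834132-119053619, minus strand), the main activator, had 110, 67 and 14 UMIs on days 4, 7 and 14. These made 8.68 CPM (7.13–10.5), 5.76 CPM (4.47–7.32) and 2.63 CPM (1.44–4.41). Day 14 lay below both other days, 3.30-fold (1.89–6.23) under day 4 and 2.19-fold (1.22–4.22) under day 7. The ratio of day 7 to day 4 was 0.664 (0.483–0.908). With equal weight for each cell, the log2 ratio of day 14 over day 7 was -0.65 instead of -1.13, which is within 2-fold.

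Smo and the co-receptors had their highest level on day 14. Smo (chr6:29735503-29761365, plus strand), the protein that SAG binds, was at 13.3 CPM on day 4 (169 UMIs, 11.4–15.5), 16.0 CPM on day 7 (186 UMIs, 13.8–18.5) and 22.7 CPM on day 14 (121 UMIs, 18.9–27.2). Day 14 was 1.70 times day 4 (1.34–2.17) and 1.42 times day 7 (1.12–1.80), while the interval of day 7 over day 4 was 0.969–1.49.

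Boc and Cdon are related cell surface proteins that present ligand to Patched. Boc (chr16:44485049-44558897, minus strand) was at 15.7 CPM on day 4 (199 UMIs), 19.2 CPM on day 7 (223 UMIs) and 27.8 CPM on day 14 (148 UMIs). Cdon (chr9:35421128-35507652, plus strand) was at 5.36, 6.28 and 10.5 CPM with 68, 73 and 56 UMIs. The ratio of day 14 to day 4 was 1.77 (1.42–2.20) for Boc and 1.96 (1.35–2.83) for Cdon. That of day 7 to day 4 was 1.22 for Boc and 1.17 (0.830–1.65) for Cdon.

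Gas1 (chr13:60174405-60177365, minus strand), a co-receptor anchored by a lipid, was lowest on day 7. It had 154 UMIs or 12.1 CPM on day 4 (10.3–14.2), 86 UMIs or 7.40 CPM on day 7 (5.92–9.13) and 129 UMIs or 24.2 CPM on day 14 (20.2–28.8). All 3 intervals were apart, with day 14 at 3.28 times day 7 (2.47–4.35) and at 1.99 times day 4 (1.57–2.54), just under the 2-fold limit used below.

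**Figure D1:**
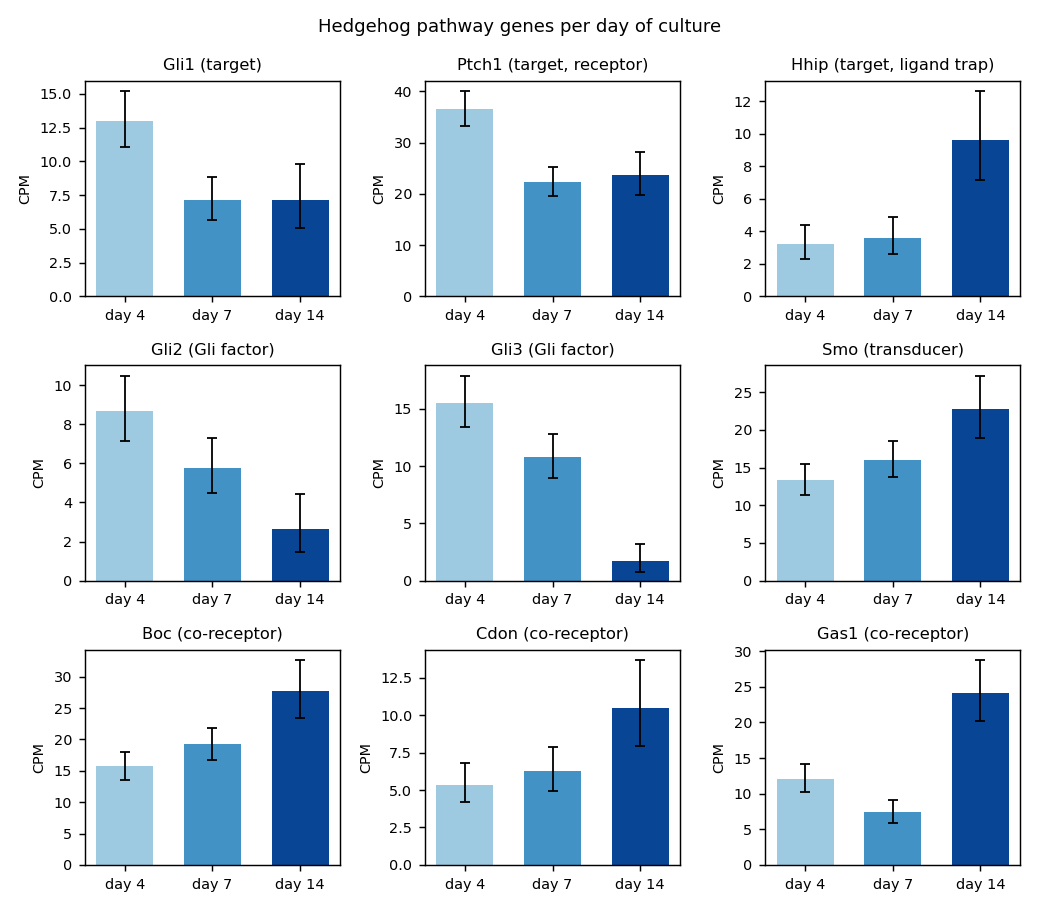
Level of the 9 members in CPM (y axis, from 0, its own scale in each panel) on days 4, 7 and 14 of culture (x axis), with 1 library per day. Bars are UMIs per 1000000 UMIs and error bars are exact Poisson 95% intervals; Gli1 and Ptch1 are highest on day 4, Gli2 and Gli3 lowest on day 14, and Hhip, Smo, Boc, Cdon and Gas1 highest on day 14.

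Counts past a 2-fold difference were taken among genes with at least 20 UMIs over a pair of days, and all 9 members had that many in each pair. From day 4 to day 7, 0 members were at least 2-fold higher, beside 5.39% of 12954 genes, and 0 were at least 2-fold lower, beside 4.33%. From day 7 to day 14, 2 members (Hhip and Gas1) were higher, beside 12.4% of 12656 genes, and 2 (Gli2, though not with equal weight for each cell, and Gli3) were lower, beside 16.6%. From day 4 to day 14, 1 member (Hhip) was higher, beside 16.3% of 12712 genes, and 2 (Gli2 and Gli3) were lower, beside 17.6%. Median-of-ratios scaling added 0.03 to every log2 ratio of day 14 over day 4, which took Cdon and Gas1 over the limit and made 3 members higher. The median log2 ratio of the members was -0.53 for day 7 over day 4, 0.51 for day 14 over day 7 and 0.77 for day 14 over day 4, beside 0.10, -0.15 and -0.06 for all genes with enough UMIs. With 9 genes that differ in both directions, neither the counts nor the medians describe a single course of the pathway.

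Ligands were nearly absent, so the culture itself carried little RNA for a natural activator. Dhh, the ligand of the testis, had 2 UMIs on day 4, 4 UMIs on day 7 and 0 UMIs on day 14, with an upper 95% limit of 0.693 CPM. Shh had 1 UMI on day 4 and 0 UMIs on days 7 and 14, and Ihh had no row of counts. The 6 markers of Sertoli cells, the usual source of Dhh, summed to 54.3, 50.8 and 52.0 CPM on days 4, 7 and 14. They were mixed: Amh was at 0 on each day and Dmrt1 at 0 on days 7 and 14. Sox9 was carried by 9.46%, 13.22% and 5.96% of cells on days 4, 7 and 14, and Aard by 7.65%, 6.73% and 12.23%. Whether Sertoli cells were present was not tested.

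Of 51 other pathway genes with a row of counts, 45 had enough UMIs between days 4 and 7, where 2 were higher (Kif7 and Bbs1), with a median log2 ratio of 0.09 beside 0.10 for all genes. Between days 4 and 14, 43 had enough UMIs, with 3 higher (Prkaca, Ift122 and Sfrp1) and 7 lower (Hhat, Disp1, Gpc3, Efcab7, Mycn, Ccnd1 and Snai1), and a median of -0.07 beside -0.06. Between days 7 and 14, 43 had enough UMIs, with 8 lower, which were the same 7 plus Kif7, and a median of -0.18 beside -0.15. The medians of these genes were thus near those of all genes in every pair of days.

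Of 4 ligand-release genes with enough UMIs on days 4 and 14, Disp1 and Hhat were lower on day 14 and Scube1 and Scube3 were within 2-fold. Disp1, which releases lipid-modified ligand from cells that make it, was at 12.1, 14.4 and 3.01 CPM on days 4, 7 and 14, and Hhat, which adds the palmitate, was at 9.07, 10.9 and 3.94 CPM. Gpc3, a glypican that competes with Patched for ligand, was at 16.3, 15.4 and 3.94 CPM. Day 14 was 4.02-fold (2.40–7.20) below day 4 for Disp1 and 4.14-fold (2.64–6.83) below for Gpc3. Scube1 was at 4.26, 6.45 and 6.20 CPM. Scube3 was more than 2-fold lower on day 7 than on day 4, which rested on 21 UMIs.

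Other reported targets went different ways. Mycn was at 10.7, 10.2 and 1.69 CPM on days 4, 7 and 14, Snai1 at 52.2, 37.3 and 10.3 CPM, and Ccnd1, a cyclin of the cell cycle, at 208, 307 and 75.7 CPM. Sfrp1, a secreted Wnt antagonist, was at 118, 85.9 and 358 CPM, 3.04 times as high on day 14 as on day 4 (2.84–3.26). The most abundant of this group, Ccnd2, was at 512, 948 and 572 CPM. Mycn and Ccnd1 are also cell cycle genes, and the 8 proliferating markers summed to 818, 792 and 120 CPM on the same days; their part in these differences was not tested.

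Negative regulators and ciliary genes mostly stayed within 2-fold. Of 12 negative regulators with enough UMIs, Prkaca, the catalytic subunit of the kinase that primes Gli proteins for processing, was higher on day 14, at 24.7, 24.2 and 55.0 CPM on days 4, 7 and 14. Csnk1a1, the most abundant of them, was at 526, 543 and 273 CPM, just inside the limit. Sufu, which binds Gli factors, was at 4.26, 4.56 and 6.01 CPM.

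Among 8 ciliary transducers, Evc2 was the most abundant at 15.2, 20.9 and 18.2 CPM, and Efcab7, a partner of the Evc complex, was 2.77-fold (1.42–6.05) lower on day 14 than on day 4. Kif7, a kinesin at the cilium tip, had 19, 36 and 6 UMIs. Of 12 primary cilium genes, the most abundant, Kif3a, was at 52.3, 59.2 and 47.1 CPM, and Ift122 was 2.25 times (1.51–3.35) as high on day 14 as on day 4. Bbs1 passed the limit between days 4 and 7 on 21 UMIs, with an interval of 0.999–8.57 for its ratio.

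Cells with a UMI of a target were few on every day. A Gli1 UMI was found in 151 of 2980 cells on day 4 (5.07%, exact Clopper-Pearson 95% interval 4.31–5.92%), 78 of 2171 on day 7 (3.59%, 2.85–4.46%) and 36 of 973 on day 14 (3.70%, upper limit 5.09%). A Ptch1 UMI was found in 11.5% (10.4–12.7%), 9.40% (8.20–10.7%) and 9.04% (7.32–11.0%) of cells on days 4, 7 and 14. For Hhip the shares were 1.11% (0.763–1.55%), 1.01% (0.636–1.53%) and 3.08% (2.09–4.37%). Hhip was again highest on day 14. For Gli1 and Ptch1 the share was highest on day 4, with an interval that overlapped those of days 7 and 14.

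At least 1 of the 3 genes was seen in 468 cells of day 4 (15.7%, 14.4–17.1%), 275 cells of day 7 (12.7%, 11.3–14.1%) and 129 cells of day 14 (13.3%, 11.2–15.6%). These cells were deeper than the rest. Their median was 5428.5 UMIs against 2559.5 on day 4, 7428 against 2928.5 on day 7 and 7516 against 2989.5 on day 14. With every cell brought down to 1500 UMIs (753, 429 and 179 shallower cells of days 4, 7 and 14 had too few), the shares were 6.65% (5.65–7.76%), 4.94% (3.97–6.06%) and 5.79% (4.27–7.65%). Day 4 had the highest value, and the interval of each day overlapped those of the others.

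Thinned shares of cells with Hhip were 0.539% (0.279–0.939%), 0.402% (0.162–0.826%) and 1.51% (0.783–2.63%) on days 4, 7 and 14, with overlapping intervals. At 1000 UMIs per cell they were 0.189%, 0.351% and 0.546%, so the day 14 value and the order of days 4 and 7 depend on the depth. For Gli1 the shares at 1500 UMIs were 1.84%, 1.03% and 1.26%, and for Ptch1 4.54%, 3.73% and 3.40%. At 1000 UMIs they were 1.36%, 0.902% and 0.328% for Gli1 and 3.32%, 2.20% and 2.51% for Ptch1. For both genes the order of days 7 and 14 thus depends on the depth. At these depths, having no UMI does not show that a cell lacks the gene's RNA.

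Droplets also catch free RNA, and no cell type that should lack the pathway was frequent enough to measure it. Only 11 cells had at least 2 of the 8 macrophage markers (median 5083 UMIs), and 1 of them had a Gli1 UMI and 1 a Ptch1 UMI. The macrophage markers summed to 10.5, 25.1 and 235 CPM on days 4, 7 and 14, with Lyz2 the most abundant. Of 100 cells with at least 2 endothelial markers (median 9431 UMIs), 24 had a Ptch1 UMI, but Cdh5, the most abundant of these markers, was carried by 25.0%, 36.5% and 10.2% of all cells on days 4, 7 and 14. The other markers were mixed. Cldn5, Tie1 and Esam were at 0 on days 7 and 14, and at 0.0789, 0.316 and 1.74 CPM on day 4, which held 31 of the cells. Pecam1, Egfl7 and Emcn were at 2.24, 5.33 and 1.38 CPM on day 7. On day 14 Egfl7, Emcn and Vwf were at 13.3, 0.751 and 0.188 CPM. Because Cdh5 was so widespread, the 100 cells were not used as an endothelial reference. Whether some of them were endothelial was not tested.

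As a substitute chosen after the values were seen, Prm1, a protamine of spermatids that Leydig and mesenchymal cells do not make, was counted the same way. The counted cells include a mixed cluster of 54 cells, 34 of them of day 4, with Lyz2, Tnp1 and Prm1 among its leading genes. Its germ markers were at 6116 CPM against 30.0 CPM elsewhere, so the share of cells with Prm1 is not of free RNA alone. The 8 endothelial markers were at 623 CPM in it against 89.3 CPM elsewhere, with 4 of them higher. Prm1 was found in 4.30%, 4.24% and 9.15% of cells on days 4, 7 and 14, and after thinning in 1.75% (1.25–2.39%), 0.976% (0.569–1.56%) and 3.27% (2.15–4.76%). The thinned shares of Gli1 and Hhip were at or below those of Prm1 within the intervals, and that of Ptch1 was above it on days 4 and 7 and level with it on day 14. A share of cells alone was therefore not taken to set Gli1 and Hhip apart from free RNA. Levels of cell groups within 1 library are given for this reason, with Prm1 beside them. Prm1 itself was not level in every group: on day 4 it was at 75.8 CPM (63.2–90.1) in a cluster of proliferating-like cells and at 6.93 to 12.3 CPM in the other 5 groups, so it is an imperfect measure of free RNA.

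Cells of the 3 days were clustered together without the pathway genes, which gave 12 clusters, and levels were compared within a day among groups of at least 50 cells. Cluster 8 was Leydig-like: all 8 Leydig markers were higher in it, and Hsd3b1, Cyp17a1, Cyp11a1 and Insl3 led its genes. Cluster 5 was proliferating-like, with 8 of 8 proliferating markers higher, at 4357 CPM against 269 CPM in other cells. Cluster 9 shared much of this, with 7 of 8 higher, at 2052 against 550 CPM. The other clusters are called by number. Clusters 1, 2 and 4 were nearly all of day 4, clusters 3 and 6 of day 7, and clusters 7 and 8 of day 14, so that a cluster and its library cannot be told apart across days. Clusters 5, 9 and 10 held over 50 cells on both days 4 and 7.

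On day 4, Ptch1 was at 55.1 CPM (48.7–62.2) in the 817 cells of cluster 1, led by F3, Ifitm1 and Ifit3, and at 12.2 CPM (8.76–16.4) in the 650 cells of cluster 4 with Hbegf and Ankrd1 among its leading genes. The ratio was 4.54 (3.27–6.44). Gli1 differed in the same direction, at 19.6 CPM (15.8–23.9) in cluster 1 and 5.21 CPM (3.09–8.23) in cluster 4, a ratio of 3.76 (2.25–6.61). Clusters 1 and 4 had similar depth, with medians of 4947 and 3935.5 UMIs.

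The genes that act before the targets were of both kinds between clusters 1 and 4, with and without a difference beyond counting error. Smo was at 16.0 and 11.0 CPM, Boc at 16.6 and 15.0 CPM and Gli3 at 12.3 and 13.9 CPM in clusters 1 and 4, each with a ratio whose interval held 1. Gli2 was at 13.1 and 5.21 CPM, a ratio of 2.52 (1.47–4.52), Gas1 at 12.7 and 4.34 CPM, a ratio of 2.92 (1.64–5.54), and Cdon at 7.28 CPM in cluster 1, a ratio of 2.80 (1.32–6.62). Prm1 was at 12.3 CPM (9.34–15.8) in cluster 1 and 8.68 CPM (5.86–12.4) in cluster 4, with overlapping intervals.

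Cluster 2, of shallow day 4 cells (median 1181.5 UMIs) led by Ifi27l2a and Irf7, resembled cluster 1, with Ptch1 at 45.6 CPM (33.4–60.8) and Gli1 at 14.9 CPM (8.31–24.5). Clusters 5 and 9, the latter led by S-phase genes such as Ccne2, Rrm2 and Hells, lay between, with Ptch1 at 30.8 CPM (23.0–40.4) and 33.2 CPM (23.6–45.3). At a lower clustering resolution, where 99.8% of cluster 1, 99.1% of cluster 2 and 99.7% of cluster 4 fell into a single cluster, the highest and lowest Ptch1 levels of day 4 were only 1.69-fold apart.

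On day 7, the 278 cells of cluster 10, led by the elastic fibre genes Eln and Mfap2, had the highest level of every target. Ptch1 was at 60.4 CPM (46.8–76.7) there, at 14.2 CPM (8.88–21.4) in the 670 cells of cluster 3 and at 16.4 CPM in the 584 cells of cluster 6, a ratio of 3.68 (2.65–5.09) to the last. Gli1 was at 18.9 CPM (11.7–28.9) in cluster 10, 3.22 CPM (1.05–7.51) in cluster 3 and 5.01 CPM (3.35–7.19) in cluster 6. Cluster 5 had like levels to clusters 3 and 6, with Ptch1 at 15.1 CPM (9.12–23.6) and Gli1 at 6.38 CPM (2.75–12.6).

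Hhip had few UMIs in clusters 3, 6 and 9 of day 7. It had 15 UMIs in cluster 10 or 13.5 CPM (7.57–22.3), 13 UMIs in cluster 5 or 10.4 CPM (5.52–17.7), 1 UMI each in clusters 6 and 9 and 0 UMIs in cluster 3. Cluster 9 held 2.38% of the Hhip UMIs of the day and 12.0% of all UMIs. The lower 95% limit for cluster 10 over cluster 3 was 5.02-fold, and cluster 10 was 78.3-fold above cluster 6 with an interval of 12.0–3296. Cluster 10 held 35.7% of the Hhip UMIs of the day and 9.54% of all UMIs, and cluster 5 held 31.0% and 10.8%. These UMIs came from 8 of 278 cells of cluster 10 and 7 of 241 cells of cluster 5. UMIs of a cell are not independent, so the intervals are too narrow. After thinning to 1500 UMIs, Hhip was in 1.46% (0.303–4.22%) and 1.05% (0.127–3.73%) of their cells. Both intervals overlapped that of cluster 6, with 0 of 584 cells (up to 0.630%).

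Gas1 separated cluster 10 as well, at 28.8 CPM (19.7–40.7) in cluster 10 and 1.93 CPM (0.398–5.64) in cluster 3. Cdon was higher in cluster 10 too, at 4.76 times cluster 3 (1.69–16.5) and 2.77 times cluster 6 (1.44–5.14). Smo was at 2.80 times cluster 3 (1.30–6.39) and 1.29 times cluster 6 (0.770–2.08). Boc was at 22.5, 18.7 and 20.4 CPM in clusters 10, 3 and 6, with overlapping intervals. For Gli2 and Gli3 the ratios to clusters 3 and 6 had intervals that held 1. Cluster 10 had 6 of 8 interstitial progenitor markers higher than in other cells, and its Acta2-led myofibroblast list was at 2780 CPM against 5982 CPM elsewhere.

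The same cluster stood out on day 4, where its 93 cells had Gli1 at 34.9 CPM (16.8–64.3) and Gas1 at 97.8 CPM (65.0–141). These were the highest values of each gene among the 6 groups of that day, and the Gas1 interval lay above those of all 5 others. Ptch1 at 52.4 CPM (29.3–86.4) was level with cluster 1.

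In the clusters that held enough cells on both days, values of days 4 and 7 can be set side by side, although they come from different libraries. Ptch1 went from 30.8 to 15.1 CPM in cluster 5, a ratio of 0.492 (0.275–0.846), from 33.2 (23.6–45.3) to 22.9 CPM (15.7–32.3) in cluster 9, a ratio of 0.690, and from 52.4 to 60.4 CPM in cluster 10, a ratio of 1.15 (0.651–2.17). Gli1 had ratios of 0.897, 0.971 and 0.542 for clusters 5, 9 and 10, all with intervals that held 1. The lower Ptch1 of day 7 over all cells was thus not seen in every cluster.

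On day 14 nearly all cells were in cluster 7 (527 cells, 54.2%), led by Slc38a5, Gpx3, Mmp2 and Apoe, or in the Leydig-like cluster 8 (414 cells, 42.5%). The Leydig-like cells had the lower levels of the targets. Ptch1 was at 44.8 CPM (35.8–55.4) in cluster 7 and 9.24 CPM (6.23–13.2) in cluster 8, a ratio of 4.85 (3.16–7.61). Gli1 was at 13.2 CPM (8.52–19.4) and 3.70 CPM (1.91–6.46), a ratio of 3.56 (1.73–7.79).

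On day 14 Hhip was at 12.6 CPM (8.10–18.8) in cluster 7 and 6.78 CPM (4.25–10.3) in cluster 8, a ratio of 1.87 (1.00–3.49). Gas1 was at 48.0 CPM (38.6–58.9) and 10.8 CPM, a ratio of 4.45 (2.98–6.77). Gli2 had 11 UMIs in cluster 7 and 3 UMIs in cluster 8, a ratio of 6.27 (1.66–35.0), and Gli3 had 6 and 2 UMIs, a ratio of 5.13 (0.918–52.0).

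Smo, Boc and Cdon had ratios nearer to 1 between these clusters. Smo was at 28.5 CPM (21.4–37.1) in cluster 7 and 18.8 CPM (14.4–24.1) in cluster 8, a ratio of 1.51 (1.03–2.22). Boc was at 25.3 CPM (18.6–33.5) and 28.3 CPM (22.8–34.8), and Cdon at 8.96 CPM (5.22–14.3) and 11.4 CPM (8.02–15.7), with ratios whose intervals held 1. Prm1 was at 21.6 CPM (15.5–29.3) in cluster 7 and 16.3 CPM (12.2–21.4) in cluster 8.

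The cells of cluster 7 were the shallower ones, with a median of 2208 UMIs against 5575.5 in cluster 8. After thinning to 1500 UMIs a Ptch1 UMI was left in 20 of 374 cells of cluster 7 (5.35%, 3.30–8.14%) and 5 of 397 cells of cluster 8 (1.26%, 0.410–2.91%). For Gli1 the thinned shares were 1.87% (0.756–3.82%) and 0.504% (0.0611–1.81%), which overlapped, and for Prm1 they were 2.67% (1.29–4.86%) and 3.78% (2.13–6.16%). Cluster 7 held 35.6% of the UMIs of day 14 but 67.5% of those of Ptch1 and 65.8% of those of Gli1.

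**Figure D2:**
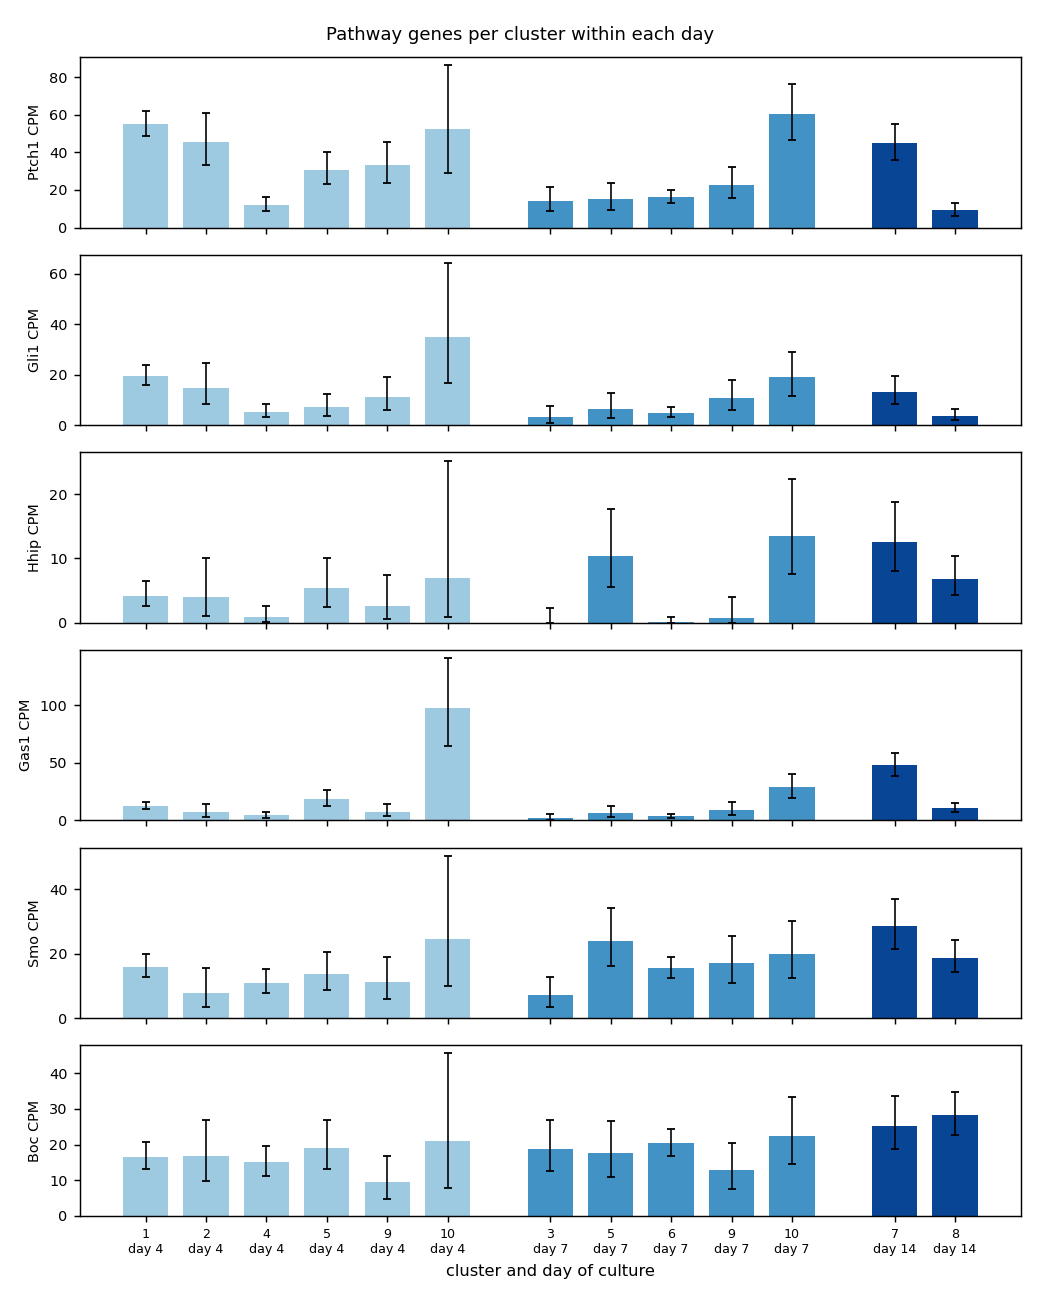
Level in CPM (y axis, from 0) of Ptch1, Gli1, Hhip, Gas1, Smo and Boc in each cluster with at least 50 cells, placed by day of culture (x axis). Bars are UMIs per 1000000 UMIs of the group and error bars are exact Poisson 95% intervals; Ptch1 and Gli1 are high in clusters 1, 2 and 10 of day 4, cluster 10 of day 7 and cluster 7 of day 14, while Boc has no such pattern.

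Without clusters, cells carrying Gli1, Ptch1 or Hhip were compared with the other cells of their day at 1500 UMIs each. On day 14 the 46 carrying cells had 6145 CPM of the Leydig markers and the 748 others 11702 CPM, a ratio of 0.525 (0.476–0.578). Cyp11a1 alone was at 783 and 1878 CPM, a ratio of 0.417 (0.312–0.546). The interstitial progenitor markers, led by Dcn, were at 2043 and 1503 CPM, a ratio of 1.36 (1.14–1.62), although Dcn alone was at 1.15 (0.907–1.45). The myofibroblast markers were at 986 and 513 CPM, a ratio of 1.92 (1.47–2.47). Of their 68 UMIs in carrying cells, 27 were of Acta2, at a ratio of 3.99 (2.52–6.13), and Tagln was at 4.24 (1.41–10.7). Myl9, Actn1, Lmod1, Nexn and Tpm2 had intervals that held 1, and Cnn1 had 0 UMIs. The list was at lower levels in carrying cells of day 4, with a ratio of 0.888 (0.841–0.937), and of day 7, with 0.812 (0.749–0.878). Carrying cells of day 14 were thus poorer in Leydig markers, as cluster 8 was in the targets.

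On day 4 the 148 carrying cells had 1748 CPM of the interstitial progenitor markers against 1213 CPM in the 2079 others, a ratio of 1.44 (1.29–1.60), and less of the matrix fibroblast markers, with 3320 against 4125 CPM, a ratio of 0.805 (0.746–0.867). Their germ cell markers were at 31.5 and 217 CPM, a ratio of 0.145 (0.0581–0.300). On day 14 the macrophage markers had 0 UMIs in carrying cells and were at 114 CPM in the others (ratio up to 0.475). The others are all remaining cells of the day, those with germ cell or macrophage markers among them. On day 4 the proliferating markers of carrying cells and others were at 874 and 722 CPM, a ratio of 1.21 (1.04–1.40). On day 7 this order was reversed, with 434 CPM in the 86 carrying cells and 786 CPM in the others, a ratio of 0.552 (0.416–0.720), and on day 14 it was again that of day 4, with 174 and 82.0 CPM, a ratio of 2.12 (1.06–3.89) that rests on 12 UMIs in carrying cells, 4 each from Tpx2 and Prc1. On day 7 the progenitor markers, at 953 and 832 CPM, had an interval that held 1. The summed Leydig markers did not differ beyond counting error on either day, at ratios of 0.958 on day 4 and 0.934 on day 7 whose intervals held 1. Single markers differed in both directions: Cyp11a1 had 0 UMIs in carrying cells and 55 in others on day 4 (ratio up to 0.974) and a ratio of 0.370 (0.119–0.875) on day 7, where Akr1cl was at 1.44 (1.09–1.88). These intervals take UMIs of a cell as independent, which they are not, so they are too narrow.

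Gli1 was found more often in cells with Ptch1 than in others, and the cells with Ptch1 were also the deeper ones. On day 4, 12.5% of the 343 cells with a Ptch1 UMI had a Gli1 UMI (9.22–16.5%), against 4.10% of the rest (3.37–4.92%). The shares were 8.82% (5.31–13.6%) and 3.05% (2.34–3.91%) on day 7, and on day 14 they were 14.8% (8.11–23.9%) and, with 23 of 885 cells, at most 3.87%. For Prm1 on day 4 they were 6.12% (3.83–9.21%) and 4.06% (3.34–4.88%), with overlapping intervals. Smo, which is not a target, was also found more often in cells with Ptch1. Its shares were 10.2% (7.21–13.9%) and 4.55% (3.79–5.42%) on day 4, and 18.6% (13.5–24.7%) and 6.71% (5.64–7.91%) on day 7. At 1500 UMIs per cell Smo was in 1.98% against 2.07% on day 4 and in 0 of 65 cells against 2.27% on day 7, with overlapping intervals. At 1500 UMIs per cell, 4 of 101 cells with Ptch1 had Gli1 (3.96%, 1.09–9.83%) against 1.74% (1.23–2.39%), and 2 of 65 on day 7 (3.08%, 0.375–10.7%) against 0.954% (0.546–1.54%). At 1000 UMIs Gli1 was in 0 of 88 such cells on day 4, but in 3 of 44 on day 7 (6.82%, 1.43–18.7%) against 0.768% (0.431–1.26%), with intervals apart. On day 14 Gli1 was in 1 of 27 cells with Ptch1 at 1500 UMIs (3.70%, 0.0937–19.0%) against 1.17% (0.538–2.22%). At 1000 UMIs it was in 1 of 23 (4.35%, 0.110–21.9%) against 0.224% (0.0271–0.807%). The day 14 intervals overlapped at both depths. The thinned values rest on few cells.

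Across the 13 groups of a cluster and a day, Gli1 and Ptch1 had a Pearson correlation of 0.91 in log2(CPM + 1). Among 10665 genes with at least 100 UMIs, those with a like course to Gli1 included Igfbp4 (0.96), Gm15482, Depdc7 and Kcne4 (0.92 each). Those like Ptch1 included Adamts1 (0.95), Igfbp4 (0.94), Kcne4 and Fgl2 (0.93 each). Igfbp4 and Kcne4 were on both lists.

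Hhip was less like them, with 0.49 to Ptch1 and 0.50 to Gli1. Its most similar genes were 2700081O15Rik (0.90), Sec14l1 and Wdyhv1 (0.89 each), C630043F03Rik (0.88) and Cspp1 (0.87). Of the other members, Gli2 had 0.75 with Gli1 and 0.78 with Ptch1, Gas1 0.76 and 0.67, Smo 0.38 and 0.22, Boc -0.07 and -0.05, Gli3 -0.03 and 0.11, and Cdon -0.29 and -0.08. The groups share 3 libraries and differ in depth, Hhip had 134 UMIs in all, and the values are descriptions.

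For the promoters, 7 of the 9 members matched an entry in RefSeq sequences of GRCm38.p6, from 250 bases before to 50 after the start of a gene. Gli1 and Boc had no entry. The letters GACCACCCA, a consensus bound by Gli factors, or their reverse complement TGGGTGGTC were in 0 of these 7 windows and in 83 of 32851 promoters (0.253%). The shorter core CCACCC or GGGTGG, added after that result was seen and contained in the longer letters, was in those of Gli2, Gli3, Hhip and Smo and in 31.5% of all promoters. The 250 bases before the start are shown for Ptch1 and Hhip, the targets with an entry whose levels went different ways, on the strand of the gene with the core in capitals. Ptch1 at chr13:63565736-63565985 (minus strand) lies inside 2 longer Ptch1 transcripts of GENCODE M21 but touches no exon, and Hhip at chr8:80058009-80058258 (minus strand) lies outside the annotated gene.
Ptch1: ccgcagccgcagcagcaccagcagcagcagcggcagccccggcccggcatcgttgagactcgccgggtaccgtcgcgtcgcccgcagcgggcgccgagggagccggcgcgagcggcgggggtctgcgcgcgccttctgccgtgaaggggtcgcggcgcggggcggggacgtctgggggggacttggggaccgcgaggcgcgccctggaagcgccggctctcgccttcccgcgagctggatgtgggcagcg
Hhip: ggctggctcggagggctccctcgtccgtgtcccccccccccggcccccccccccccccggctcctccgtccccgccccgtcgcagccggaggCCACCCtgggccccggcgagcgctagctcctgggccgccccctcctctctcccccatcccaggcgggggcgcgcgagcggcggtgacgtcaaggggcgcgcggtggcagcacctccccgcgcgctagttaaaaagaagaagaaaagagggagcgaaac
The Ptch1 bases hold 0 matches of the core and the Hhip bases 1, and G and C make up 78.4% and 76.0% of them. A match of letters is a description and not a binding site.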

How the data were processed

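Per the labels and the paper's methods, the authors aligned Drop-seq reads to GRCm38 and deposited raw UMI counts per gene and cell. The submitters' processing notes name STAR 2.5.2a, Picard 2.6.0 and SAMtools 1.2, while the paper's methods name STAR 2.7.1a; the annotation release is not given in the sources used here. The merged table holds 6124 cells of days 4, 7 and 14 and 24698 genes, and its counts equal those of the tables per day, with 0 entries differing. A further 495 columns, from day 0 cells, were not used. The tables per day hold 3300, 2400 and 1300 barcodes for days 4, 7 and 14, of which 2981, 2173 and 974 pass limits of 500 genes and 10% mitochondrial UMIs. The merged table keeps 2980, 2171 and 973. Doublets were kept; removing the 6% of cells with the highest Scrublet score in each day is an alternative.

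UMIs were summed per day or group, and CPM is per 1000000 UMIs. For a count of 0 the limits given are those of the exact intervals, and a floor of 3 counts was not used for them. Cells were thinned without replacement with seed 1. Seurat 5.3.0 in R 4.3.3 clustered the cells (2000 variable genes, 20 components, 20 neighbours, Louvain resolution 0.8) with all pathway genes left out. A marker counted as higher in a cluster at 10 UMIs and 1.5 times the other cells, with 10 CPM added to each level. Leading genes are the 10 of at least 50 CPM with the highest such ratio. Python 3.11.15, numpy 2.4.6, scipy 1.17.1, pandas 2.3.3, scanpy 1.11.5 and matplotlib 3.10.9 did the rest. Fold counts and thinning were tested on simulated data. Positions are from GENCODE M21 on GRCm38.

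Named were the 9 members, other pathway genes past 2-fold in a pair of days, the ligands, the most abundant gene of each role, and the 5 genes most like each of Gli1, Ptch1 and Hhip. Some results under these rules are left out. Sufu, Prm1, the core CCACCC, the pairs of clusters and single markers were picked after their values were seen. The members and lists were chosen with earlier results of these data known. Ihh, Mosmo, Foxl1 and Foxd1 had no row, and Grk2 is counted as Adrbk1. Alternatives covered cell filters, doublets, weighting, scaling, UMI minimum, fold, thinning depth and clustering resolution. Protein sequences were not analysed here.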

Additional observations from a re-analysis of the deposited data

How the results depend on the processing

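Of 189 log2 ratios of the members under 7 alternatives, 188 stayed within the 95% interval of the main ratio, and no ratio past 2-fold changed sign. The exception was Gas1 for day 7 over day 4, at -0.32 with equal weight per cell against -0.72 for summed UMIs. Inside their wider intervals, Gli2 for day 14 over day 7 went from -1.13 to -0.65, which is within 2-fold, and Cdon for day 7 over day 4 from 0.23 to 0.67 under equal weight; the cause was not tested. Gli1 for day 14 over day 7, at 0.00, took values of either sign, from -0.08 to 0.12. For day 14 over day 4, Cdon (0.97) was at 1.12 without the highest Scrublet scores and Gas1 was higher under equal weight, both then past 2-fold. All alternatives were planned except leaving out the richest cell of each day.

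Cells carrying Gli1, Ptch1 or Hhip made up 14.4% of day 4 and 10.2% of day 14 barcodes without a cell filter, and 17.8% of day 4 cells under the stricter filter (800 genes, 5% mitochondrial UMIs), against 15.7%, 13.3% and 15.7%. At 1000 UMIs per cell they were 4.79%, 3.26% and 3.28% on days 4, 7 and 14, lower than at 1500 UMIs as fewer UMIs are drawn.

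Counts past the fold moved with their limits. At 1.5-fold, 1904 genes were higher and 1140 lower for day 7 over day 4, 2553 and 3595 for day 14 over day 7, and 3294 and 3635 for day 14 over day 4. Of the members, 4 were then lower for day 7 over day 4, and 5 were higher and 4 lower for day 14 over day 4. Without a minimum on UMIs, the counts of all genes were 3800 higher and 3800 lower, 5854 and 5358, and 6256 and 5863. With at least 50 UMIs, 405 were higher and 350 lower for day 7 over day 4. Median-of-ratios scaling made 3 members higher for day 14 over day 4.

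The ratio of the highest to the lowest Ptch1 level among clusters of day 4 was 1.69 at resolution 0.4, where clusters 1, 2 and 4 merge, against 4.54. At resolution 1.2 it was 4.66. For days 7 and 14 it was 3.68 and 5.07 at resolution 0.4, against 4.26 and 4.85. Of the 17 cluster ratios at these resolutions, 3 were classed as moved, the 1.69 of day 4 among them. No paired analysis was possible because each day has 1 library and no animal is named across days.

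With 1 library per day, day, medium, library and cell composition cannot be told apart, and most clusters come from a single library. Without a culture lacking SAG, no value shows an effect of SAG. Rare genes such as Hhip rest on few UMIs, and free RNA was gauged only by Prm1, which was not level across groups. RNA levels do not measure protein or pathway activity.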
